A study of Mus musculus with 5 samples.

Results

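Cd34+ Mpo-low cells are Lin-kit+ cells of mouse bone marrow that carry transcripts of Cd34, a sialomucin on the surface of haematopoietic progenitors, but little message for the granule enzymes Mpo and Elane. They were picked by measured transcripts, each counted through its unique molecular identifier (UMI). A member had at least 2 UMIs of Cd34, Mpo under 0.3% and Elane under 0.5% of its UMIs, and no UMI of Irf8, Flt3, Dntt or Pf4, with fewer than 2 of the 8 stem cell genes Procr, Hlf, Mecom, Mllt3, Ly6a, Meis1, Hoxb5 and Ctnnal1 detected. This rule kept 201 of 11581 Lin-kit+ cells, out of 12893 cells in the series. All libraries came from untreated bone marrow of mice aged 20 weeks that carried Fgd5CreERT2/+ and Rosa26Tomato/+, alleles that put an inducible Cre under the stem cell gene Fgd5 and a Cre-dependent fluorophore in a ubiquitous locus. Cells negative for mature lineage markers and positive for CD45.2 and c-kit were sorted into 3 Lin-kit+ libraries, called a, b and c here, and 2 further libraries held cells positive for an Fgd5 reporter. The deposited table does not name the population of a library. The match rests on the cell numbers in the study's text. Whether the libraries came from separate mice or from a single suspension is not stated, so that SDs and p-values cover only the spread between libraries.

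Blood formation in the marrow passes from rare stem cells through progenitors that lose self-renewal and then commit to a lineage. Progenitors of granulocytes and monocytes fill with Mpo, Elane, Prtn3 and Ctsg, the proteins of primary granules, and neutrophil precursors later add the secondary granule proteins. Irf8 marks the monocyte and dendritic cell branch, Flt3 and Dntt the lymphoid-primed branch and Pf4 the megakaryocyte branch, so the rule leaves Cd34-bearing cells with little or no message of these branch markers and at most 1 of the stem cell genes.

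Library a held 22 members among 1339 cells, library b 71 among 4095 and library c 108 among 6147. These are shares of 1.64% (exact 95% interval 1.03 to 2.48), 1.73% (1.36 to 2.18) and 1.76% (1.44 to 2.12), which cover counting error only, with a mean of 1.71% ± 0.060 (SD, n = 3). The 3 intervals overlapped throughout. Among reporter-positive cells, 0 of 793 and 1 of 519 passed the same rule. The condition on Cd34 left 1970 cells, that on Mpo 1007, that on Elane 998, that on Irf8 497, that on Flt3 and Dntt 316, that on Pf4 291 and that on stem cell genes 201. The Elane condition alone kept out 1 cell, the Irf8 condition 194.

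Members held a median of 3711 UMIs, against 5197 in all other Lin-kit+ cells, and 5927, 3138 and 3951 UMIs in libraries a, b and c. Library a thus gave few but deep members, and 150287 of the 874204 UMIs summed over members. A gene is missed more often in a shallow cell, and 4 conditions of the rule ask for absent or rare transcripts. Mitochondrial genes took a median of 3.34% of UMIs in members and 3.20% in the others. Of the members, 1 was called a doublet, among 123 doublets in all Lin-kit+ cells. The Lin-kit+ libraries shared 46 cell barcodes, and 2 members had a barcode that another library also held.

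The sequence before the start of 3 genes is shown because Cd34 led the rule, Ctla2a had the highest ratio to other cells among the markers given for these cells, and Myct1 had the second largest rise of the better measured genes outside the rule. The stretches are the 250 bases before the annotated start, from RefSeq on GRCm38.p6, the patch release of the mm10 build that the submitters' notes name. Capitals mark matches on either strand to GATAAG, a core bound by GATA factors, AGGAAG, a core bound by ETS factors, and TGTGGT, a core bound by RUNX factors.
Cd34 (chr1:194938571-194938820, plus strand): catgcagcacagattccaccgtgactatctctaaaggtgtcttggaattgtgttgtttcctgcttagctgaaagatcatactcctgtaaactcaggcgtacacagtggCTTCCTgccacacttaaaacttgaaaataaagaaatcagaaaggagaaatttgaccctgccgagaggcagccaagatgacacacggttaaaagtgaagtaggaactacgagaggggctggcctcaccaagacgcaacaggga
Ctla2a (chr13:60936626-60936875, minus strand, the first of 2 starts in the table): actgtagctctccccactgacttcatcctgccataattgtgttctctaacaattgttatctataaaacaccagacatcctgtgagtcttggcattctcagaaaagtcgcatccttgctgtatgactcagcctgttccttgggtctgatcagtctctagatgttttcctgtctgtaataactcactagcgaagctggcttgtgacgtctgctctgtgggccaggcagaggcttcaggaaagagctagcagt
Myct1 (chr10:5593478-5593727, plus strand): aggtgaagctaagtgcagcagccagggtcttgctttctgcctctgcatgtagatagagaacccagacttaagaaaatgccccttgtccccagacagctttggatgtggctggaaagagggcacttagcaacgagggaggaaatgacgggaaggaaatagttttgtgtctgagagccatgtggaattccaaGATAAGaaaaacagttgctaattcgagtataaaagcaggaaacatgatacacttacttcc
The Cd34 stretch held 1 AGGAAG on the opposite strand, starting 142 bases before the start, and the Myct1 stretch 1 GATAAG starting 60 bases before it. The Ctla2a stretch held none of the 3 letter strings. GATAAG was found in 6.55%, AGGAAG in 29.5% and TGTGGT in 14% of 32851 stretches of the same length, and a match describes letters only.

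Levels in CPM are the UMIs of a gene per 1000000 UMIs, summed over a group's cells in a library. The rule itself set Cd34, Mpo and Elane apart, so their levels are a description. Cd34 stood at 466, 783 and 633 CPM in members of libraries a, b and c and at 113 ± 4.76 CPM (SD, n = 3) in the other cells. Mpo stood at 1244, 966 and 1087 CPM, against 4371 ± 226 CPM, and 53 members had no Mpo UMI. Elane stood at 393, 204 and 255 CPM, against 8772 ± 411 CPM, and 125 members had no Elane UMI. Mpo thus remained measurable in 148 of the 201 members, and Elane in 76.

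Ccl9, a CC chemokine of myeloid cells, stood at 313, 448 and 407 CPM in members and at 194 ± 3.86 CPM in the others. Ctla2a, a cysteine protease inhibitor, stood at 173, 399 and 495 CPM against 57.8 ± 3.01 CPM, and Muc13, a membrane mucin, at 59.9, 102 and 98.2 CPM against 27.3 ± 1.81 CPM. These 3 markers were above the others in every library, and library a was the lowest each time. Wfdc17, a small secreted protein with a whey acidic protein fold, stood at 33.3, 171 and 111 CPM against 33.8 ± 2.04 CPM, so members of library a did not stand above the other cells. These 4 markers were given with the rule, with earlier results of these data known. Their levels were not tested and are a description. Genes with symbols close to these markers were read beside them, chosen by symbol and not by sequence. Ctla2b, whose reads could be split with Ctla2a, stood at 18.0 ± 13.3 CPM in members and 4.58 ± 0.649 CPM in the others. Ccl6 stood at 12.5 ± 18.1 and 13.8 ± 1.24 CPM, and Wfdc21 at 4.97 ± 1.46 and 894 ± 74.9 CPM.

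**Figure D1:**
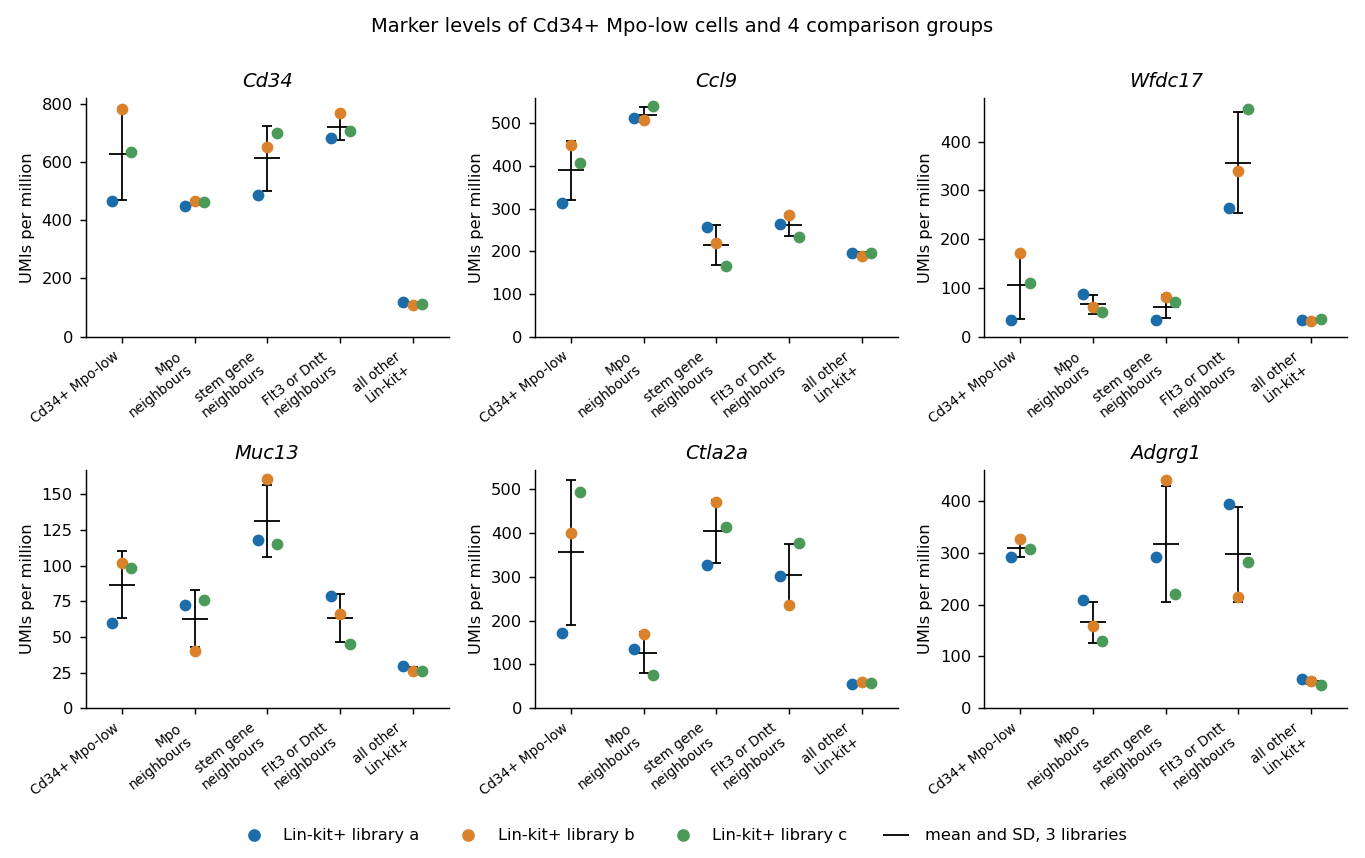
Levels (CPM, linear axis from 0) of 5 markers and Adgrg1 in Cd34+ Mpo-low cells, in cells that miss only 1 condition of the rule, and in all other Lin-kit+ cells; points are libraries a, b and c, bars the mean and SD. Ctla2a and Muc13 were at least as high in stem gene neighbours (404 and 131 CPM on average) as in Cd34+ Mpo-low cells (356 and 86.7 CPM), and Wfdc17 was highest in Flt3 or Dntt neighbours (357 CPM).

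The same markers were compared across 3 groups of cells that met every condition but 1: 70 Mpo neighbours with at least 0.3% Mpo, 90 stem gene neighbours with at least 2 stem cell genes, and 123 Flt3 or Dntt neighbours with a UMI of either gene. Ccl9 averaged 520 ± 17.5 CPM in Mpo neighbours, above all 3 member libraries. Muc13 averaged 131 ± 25.3 CPM and Ctla2a 404 ± 72.8 CPM in stem gene neighbours. Wfdc17 averaged 357 ± 103 CPM in Flt3 or Dntt neighbours, above all 3 member libraries. Each of the 4 markers therefore had a group with a higher mean than the members.

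Some values changed across the thresholds of the rule, and others stayed close. The 112 members with exactly 2 Cd34 UMIs had 437 CPM of Ctla2a and 314 CPM of Adgrg1, and the 233 cells that missed the rule only through a single Cd34 UMI had 308 and 215 CPM. Cells that missed it through no Cd34 UMI numbered 2244, with 105 CPM of Ctla2a and 83301 CPM of the neutrophil gene S100a8. The 38 members with 0.2 to 0.3% Mpo had 1795 CPM of Prtn3, and the 19 cells with 0.3 to 0.4% had 1833 CPM, while Ctla2a stood at 239 CPM inside and 122 CPM outside that limit. At the limit on stem cell genes, the 87 members with 1 such gene had 426 CPM of Ctla2a and the 55 cells with 2 had 366 CPM. Adgrg1 stood at 340 and 316 CPM in these cells. The 39 cells that missed the rule only through 1 UMI of Flt3 or Dntt had 370 CPM of Adgrg1 and 352 CPM of Ctla2a. The 49 that missed it only through 1 Irf8 UMI had 221 and 217 CPM. Summed S100a8 changed far more across the Cd34, Mpo and stem cell limits, from 269 to 11097 CPM between 2 and 1 Cd34 UMIs. It went from 229 to 9121 CPM at the Mpo limit and from 230.0 to 5128 CPM at the stem cell limit. In such sums a single cell can weigh heavily. The secondary granule and calprotectin list, which holds S100a8, had a median of 6.26 UMIs per 10000 in members. Over all Mpo neighbours its median was 7.93 and its highest cell 2210, and over all stem gene neighbours 6.43 and 3350.

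The label of early myeloid progenitors was checked against markers. Primary granule transcripts were carried by most members: Prtn3, a serine protease of primary granules, was seen in 175 members and Ctsg, cathepsin G, in 118. After thinning every cell to 2000 UMIs, which leaves out 13 members, Prtn3 was seen in 77.1% of members and Ctsg in 54.3%, against 8.14% and 5.23% of cells with at least 0.5% Car1 and globin transcripts, which should lack both. Median depths before thinning were 3711 and 6266 UMIs, and the unthinned shares were 87.1% and 58.7% against 22.3% and 20.1%. Cebpa, the transcription factor of the granulocyte and monocyte branch, was seen in 1.60% of thinned members and 2.26% of other thinned cells, and Spi1, encoding PU.1, in 3.19% and 7.53%. Gata2, a factor of stem cells, mast cells and basophils, was seen in 13.3% and 4.77%. In the other thinned cells Prtn3 was seen in 76.9% and Ctsg in 66.7%, so neither protease was more frequent in members, and Ms4a3 was seen in 12.8% of members and 57.1% of the others. Without thinning, Cebpa was seen in 7.96% of members and 5.55% of the others, and its thinned share rests on 3 cells. These markers set the members apart from erythroid cells but not as myeloid among Lin-kit+ cells, and the cells are called by their rule here.

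Summed UMIs of members and of all other cells were then compared in each library. Of 9959 genes tested, 1413 (14.2%) differed at an adjusted p under 0.05 (edgeR's quasi-likelihood test with the library as a term, Benjamini-Hochberg adjustment). In members 448 genes (4.5% of those tested) were higher and 965 (9.69%) lower, and the median log2 fold change of all tested genes was -0.06. Genes that vary with the rule's own genes had to differ, so the number of calls describes how far the rule separates cells. Library values did not overlap between members and others for 384 of the higher and 708 of the lower genes, and for 33.5% of all genes tested. With library totals in place of edgeR's scaling the median rose by 0.26 on the log2 scale and the split turned to 1011 higher and 547 lower, so that directions below hold relative to edgeR's scaling. The call count was 793 without library b and 576 without library c, of which 771 and 559 were among the 1413, and 1440 without library a.

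Among the better measured genes, the largest rises were those of Gm19590, an unnamed transcript, Myct1, a Myc target of endothelial and stem cells, and Pdgfrb, a growth factor receptor. Myct1 stood at 46.6, 69.3 and 104 CPM in members of libraries a, b and c and at 11.4, 12 and 11.2 CPM in the others (log2 fold change 2.60 ± 0.25 SE, adjusted p = 9.7e-23), with 1 or more UMIs in 57 members. Its lowest member library was well above the highest of the others. Adgrg1, an adhesion receptor also called GPR56 that stem cells and early progenitors carry, stood at 293, 326 and 307 CPM against 57.4, 52.5 and 45.8 CPM (log2 fold change 2.36 ± 0.13 SE, adjusted p = 1.0e-74). It was seen in 133 members, with little spread between libraries.

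The other genes past the rule for the largest rises included Gimap1, Rtp4, Otos, Slc18a2, Bex1, Serpina3g, Gimap5, Cyp11a1, Tespa1 and Stxbp4, with log2 fold changes from 2.06 for Stxbp4 to 2.36 for Gimap1. Slc18a2, the vesicular transporter of histamine and other amines, stood at 79.8, 28.5 and 16.7 CPM in members and 4.87, 4.99 and 5.87 CPM in the others. Serpina3g, a serine protease inhibitor, stood at 79.8, 77.4 and 140 CPM against 24.2, 18.3 and 19.9 CPM. Cyp11a1, which cleaves cholesterol to pregnenolone, rested on 24 UMIs in 10 members, 106 CPM of it in library a against 8.15 and 12.5 CPM in b and c, and its fold turned to -0.62 on the log2 scale with at least 3 Cd34 UMIs asked for. It is the least secure of this group.

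Most early progenitor genes were higher in members than in all other cells, but the list's summed level was lower in each library. Of 25 tested, 16 were higher and 5 lower in members (median log2 fold change 1.06, against -0.06 over all genes). The shares over all genes were 4.5% higher and 9.69% lower. Angpt1, the ligand of the Tie2 receptor, stood at 73.2, 65.2 and 79.4 CPM against 17.7, 15.9 and 17.7 CPM (log2 fold change 1.85 ± 0.25 SE, adjusted p = 3.2e-12). Cd27, a TNF receptor family member lost with differentiation, stood at 99.8, 216 and 194 CPM against 60.6, 66.4 and 62.0 CPM (1.26 ± 0.15 SE). Tmem176b rose by 1.52 ± 0.12 SE on the log2 scale, Rgs1, a brake on G protein signals, by 1.92 ± 0.29 SE and Gcnt2 by 1.93 ± 0.32 SE. The 5 lower genes were Emb, Serpinb1a, Plac8, Nkg7 and Cd53, of which Plac8 remained abundant at 4545, 3073 and 3916 CPM against 5319, 5108 and 5382 CPM. With library totals 19 were higher and 4 lower. The summed level was 8697, 7744 and 8676 CPM in members against 8875, 8715 and 9012 CPM. It averaged 10810 CPM in Mpo, 6623 CPM in stem gene and 9068 CPM in Flt3 or Dntt neighbours. Of 24 genes tested against these groups, 3, 2 and 1 were higher in members and 1, 1 and 4 lower.

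Stem cell genes outside the rule were higher in members than in all other cells, although the rule admits at most 1 of its own 8. Of 5 tested, 4 rose, among them Gimap6 by 1.81 ± 0.26 SE on the log2 scale, Pdzk1ip1 by 1.48 ± 0.37 and Txnip, an inhibitor of thioredoxin, by 1.19 ± 0.19. Tie1 rested on 6 UMIs (log2 fold change 1.52 ± 0.79 SE, adjusted p = 0.22). GTPases of the GIMAP family, which act in lymphocyte survival, had 4 of 5 tested genes higher and none lower (median 1.81). For both lists the share over all genes tested was 4.5% higher and 9.69% lower. The stem cell list outside the rule averaged 235 ± 76.3 CPM (SD) in members and 325 ± 92.6 CPM in stem gene neighbours. It averaged 279 ± 106 CPM in Flt3 or Dntt neighbours and 79.5 ± 34.8 CPM in Mpo neighbours. The GIMAP list averaged 195, 256, 404 and 79.5 CPM in these groups, in that order. Against the neighbours only 2 genes of the stem cell list and 3 of the GIMAP list could be tested. None was called against stem gene or Flt3 or Dntt neighbours, where 1.11% and 2.78% of all genes tested were called. So few genes cannot show that levels were equal. Txnip was higher against Mpo neighbours.

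**Figure D2:**
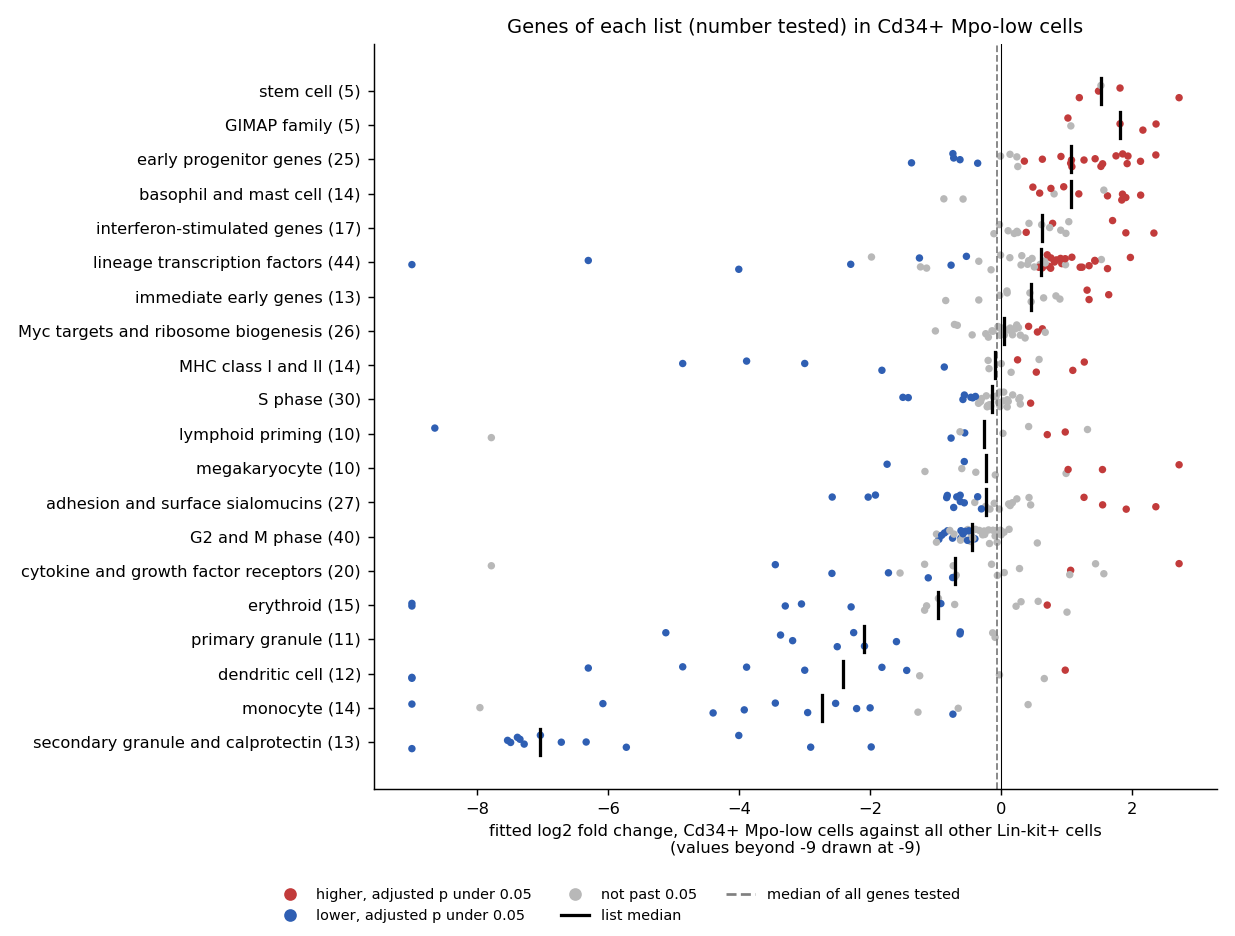
Fitted log2 fold change of each tested gene of 20 lists, Cd34+ Mpo-low cells against all other Lin-kit+ cells; colours give the call, black bars the list median and the dashed line the median of all genes tested. Stem cell, GIMAP and early progenitor genes lie to the right (medians 1.52, 1.81 and 1.06), and secondary granule, monocyte and dendritic cell genes to the left (-7.04, -2.74 and -2.41).

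Among 44 lineage transcription factors tested, 19 were higher and 7 lower (median 0.61), and 22 and 5 with library totals. The shares over all genes tested were 4.5% higher and 9.69% lower. Ikzf2, encoding the zinc finger factor Helios, stood at 153, 73.4 and 119 CPM against 22.7, 22.2 and 25.3 CPM (log2 fold change 1.97 ± 0.21 SE, adjusted p = 9.5e-20). Sox4 stood at 113, 85.6 and 136 CPM against 38.6, 35.2 and 35.2 CPM (1.43 ± 0.19 SE), and Hoxa9 at 33.3, 36.7 and 41.8 CPM against 13.4, 12.9 and 11.2 CPM (1.43 ± 0.33 SE). All 3 had library values in members that did not overlap those of the others, as had 33.5% of all genes tested. Gata2 (1.62 ± 0.23 SE), Erg (1.23 ± 0.39), Gfi1b (1.20 ± 0.34), Runx3 (0.92 ± 0.25), Runx1 (0.75 ± 0.25), Lmo2 (0.73 ± 0.18) and Myc (0.63 ± 0.16) rose as well, of which Gfi1b turned to -0.29 with the rule on thinned counts. The lower factors were Spi1, Cebpe, Ikzf1, Zeb2, Id1, Id2 and Klf4. Cebpe, which drives secondary granule genes, stood at 53.2, 0 and 20.9 CPM against 254, 266 and 297 CPM. Id2, an inhibitor of basic helix-loop-helix factors, had 1 UMI in all members. Cebpa stood at 26.6, 16.3 and 18.8 CPM against 13.3, 12.5 and 9.10 CPM, with an edgeR adjusted p of 0.43 on 17 UMIs. The summed list averaged 2408 CPM in members, 2368 CPM in stem gene, 2264.5 CPM in Flt3 or Dntt and 2171.5 CPM in Mpo neighbours. Of 26 factors tested against these 3 groups, 2, 3 and 3 were higher in members and 1, 2 and 1 lower.

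Of 20 cytokine and growth factor receptors tested, 2 were higher and 5 lower in members (median log2 fold change -0.70). Over all genes tested 4.5% were higher and 9.69% lower. With library totals 3 receptors were higher and 4 lower, and DESeq2 called 2 each way. Kit, the stem cell factor receptor by which all these cells were sorted, stood at 53.2, 93.7 and 60.6 CPM against 27.7, 29.5 and 26.7 CPM (log2 fold change 1.06 ± 0.24 SE). Csf1r, the receptor of macrophage colony-stimulating factor, was seen in 2 members, and Ifngr1 fell by 1.11 on the log2 scale. Csf2rb, Csf3r and Il3ra, receptors of granulocyte cytokines, had log2 fold changes of 0.05 ± 0.30, -0.06 ± 0.33 and -0.69 ± 0.38 (SE), none past the threshold.

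Basophil and mast cell genes varied widely between the members' libraries, with a summed level of 13102, 1614 and 4495 CPM against 1727, 1818 and 2004 CPM in the other cells. Of 14 tested, 10 were higher and 0 lower (median log2 fold change 1.07), beside 4.5% higher and 9.69% lower over all genes tested. Ifitm1, an interferon-inducible membrane protein that the list also holds, stood at 1111, 937 and 1041 CPM against 218, 232 and 236 CPM (log2 fold change 1.90 ± 0.12 SE, adjusted p = 9.5e-58) and was seen in 163 members. Gata2 stood at 173, 65.2 and 62.7 CPM against 26.4, 22.9 and 21.4 CPM, and both genes were higher in all 3 libraries. Cpa3, the mast cell carboxypeptidase, stood at 918, 179 and 435 CPM against 107, 91.7 and 110 CPM. Mcpt8 and Prss34, proteases of basophil granules, stood at 4804, 40.8 and 909 CPM and at 4591, 4.08 and 1494 CPM in members, and library b was below the other cells for both. When the rule was applied to cells thinned to 2000 UMIs, 2 of the list were higher and 5 lower (median -0.72), and with an estimate of the spread that allows for outlying genes 6 were higher. By edgeR's test Cpa3 then had an adjusted p of 0.62 and 0.28, and Mcpt8 and Prss34 one of 0.92 and 0.94 with that estimate of the spread. Gata2 and Ifitm1 stayed called under both.

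A few cells carried most of the basophil granule transcripts. In 8 members, 0.881 to 12.3% of UMIs came from Mcpt8 and Prss34, against at most 0.139% in any other member, and these 8 held 1399 of 1406 Prss34 UMIs and 1123 of 1167 Mcpt8 UMIs. They held 165 of 390 Cpa3 UMIs, 48 of 117 Ms4a2 UMIs and 17 of 72 Gata2 UMIs, so these genes were spread over more cells. Prg2, the major basic protein of eosinophil granules, had 996 of its 998 UMIs in 1 further member, where it made up 12.9% of UMIs. The 3 higher eosinophil genes, Prg2, Prg3 and Epx, rested on that cell, which was also the member called a doublet. With all cells over these limits left out, both the 9 members and such cells in the comparison group, 7 basophil and mast cell genes were higher and 1 lower. Of the 192 members over neither limit, 37 had a UMI of Gata2, 62 of Cpa3, 109 of Ctsg and 104 of Apoe. Both Ctsg and Cpa3 were seen in 45 of them, both Apoe and Ctsg in 58, and both Gata2 and Cebpa in 4.

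Primary granule genes fell, including those the rule did not use. Of 11 tested, 9 were lower and 0 higher (median -2.09), beside 9.69% lower and 4.5% higher over all genes tested. Prtn3 stood at 1045, 1088 and 1181 CPM against 4001, 3777 and 3979 CPM (log2 fold change -2.09 ± 0.09 SE), and Ctsg at 1670, 758 and 1191 CPM against 2746, 2875 and 3099 CPM (-1.60 ± 0.09 SE). Ms4a3, a tetraspanning protein of granulocyte and monocyte progenitors, fell by 3.19 on the log2 scale and Lyz2, lysozyme, by 3.37. Srgn, the proteoglycan core of granules, stood at 1790, 1451 and 1895 CPM against 1483, 1522 and 1653 CPM (adjusted p = 0.42). The rule limits Mpo and Elane, which belong to the same granules.

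All 13 secondary granule and calprotectin genes tested were lower (median -7.04), beside 9.69% of all genes tested. S100a8, a subunit of calprotectin, stood at 66.5, 228 and 288 CPM in members. Camp, the cathelicidin, stood at 33.3, 73.4 and 91.9 CPM and fell by 7.35 on the log2 scale, and Ngp fell by 7.39. After thinning, S100a8 was seen in 34.0% of members and in 29.7% of the cells rich in Car1 and globins, which should lack it, and Camp in 17% and 12.8%. Cells with at least 2% of UMIs from S100a8 and S100a9 had been left out of that reference, so it is not independent of S100a8. The shares in members are close to those in this reference.

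Monocyte and dendritic cell genes were also low, where 9.69% of all genes tested were lower and 4.5% higher. Of 14 monocyte genes tested, 10 were lower and 0 higher (median -2.74, or -2.37 with genes at no UMI set to their bound). Ly6c2, a surface antigen of monocytes, stood at 53.2, 44.8 and 25.1 CPM against 2098, 2080 and 2079 CPM. Of 12 dendritic cell genes, 8 were lower and Tcf4 alone higher (median -2.41, or -1.63 with bounds). Cd74, the invariant chain of MHC class II, was seen in 4 members and fell by 4.86 on the log2 scale. The rule asks for no UMI of Irf8, a factor of both lineages.

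The 10 largest falls by the naming rule were of genes with no UMI in any member. A count of 3 UMIs over all members corresponds to 3.43 CPM, and against it Tifab was at least 24.4-fold lower, Lrg1 18.6-fold, Ifitm6 18.1-fold, AB124611 13.4-fold and Gca 12.9-fold. Cd177, C3, Chil1, Vcam1 and Mt2 were at least 12.6-fold, 12.2-fold, 9.22-fold, 7.43-fold and 7.12-fold lower.

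Erythroid, megakaryocyte and lymphoid genes showed mixed counts, to be read beside 4.5% higher and 9.69% lower over all genes tested. Of 15 erythroid genes, 6 were lower and Car2 alone higher (median -0.96). Car1, a carbonic anhydrase of early erythroid cells, was seen in 8 members and fell by 3.30 on the log2 scale, while Car2 stood at 333, 640 and 537 CPM against 246, 225 and 303 CPM (log2 fold change 0.70 ± 0.13 SE). Apoe, the apolipoprotein, stood at 579, 554 and 311 CPM against 224, 193 and 80.4 CPM (1.36 ± 0.12 SE). Of 10 megakaryocyte genes 3 were higher, Itga2b and Plek among them, and 2 lower, Serpine2 and Cd9. Of 10 lymphoid priming genes 2 were higher, Bcl11a and Tcf4, and 3 lower, Lsp1, Cd7 and Ikzf1. DESeq2 called none of the 10 and library totals 2 higher and 0 lower. Cd7 had no member UMI and was at least 1.33-fold lower, and Bcl11a was not called without library c (edgeR adjusted p = 0.92). Of 4 genes of committed B, T and NK cells tested, 2 were lower, Ccl5 and Nkg7. Ccl5 had no member UMI and was at least 2.8-fold lower, and Nkg7 is also on the primary granule and early progenitor lists.

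Interferon-stimulated genes had 5 of 17 tested higher and 0 lower (median 0.62): Ifitm1, Ifitm3, Ifi27, Oasl2 and Rtp4. This count and those below stand beside 4.5% higher and 9.69% lower over all genes tested. The MHC list divided by class. H2-K1, H2-Q6, H2-Q7 and B2m of class I were higher, with H2-Q7 at 166, 147 and 211 CPM against 70.8, 71.2 and 71.5 CPM, and 5 genes of the class II pathway were lower. Class I genes are near copies of each other, and their reads could be split between them. B2m was not called without library b or c, with at least 3 Cd34 UMIs or with Mpo under 0.1%. The summed MHC list averaged 6430.5 CPM in members, 7084.5 CPM in stem gene, 7764 CPM in Flt3 or Dntt and 4815.5 CPM in Mpo neighbours. The interferon-stimulated list averaged 2910.5, 3368, 2918 and 1861 CPM in these groups, in that order. The remaining small lists gave 3 of 13 immediate early genes higher (Jun, Egr1 and Ier3), 3 of 7 CC chemokine and WAP genes lower, and among 5 cysteine protease inhibitors Ctla2b higher and Cst3, Cst7, Cstb and Stfa1 lower. Of 27 adhesion genes 4 were higher, Cd27, Esam, Adgrg1 and Adgrl4, and 12 lower, a split that turned to 9 higher and 7 lower with library totals and was 3 and 5 with DESeq2.

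Of 30 S phase genes 1 was higher and 7 lower (median -0.14), and of 40 G2 and M phase genes 0 were higher and 12 lower (median -0.44), beside 4.5% higher and 9.69% lower over all genes tested. Mki67, a marker of dividing cells, fell by 0.74 on the log2 scale and was seen in 5.32% of thinned members and 14.2% of other thinned cells, while Top2a was seen in 25.5% and 27.9%. The fall of Mki67 was not called with DESeq2, library totals, the rule on thinned counts or without library c. DESeq2 called 3 of the G2 and M phase genes lower, and library totals gave 1 higher and 5 lower. With library totals the S phase counts were 3 higher and 2 lower with a median of 0.12, and the medians of the D cyclin, adhesion, MHC, megakaryocyte and committed lymphoid lists turned positive as well. The summed S phase level differed from that of other cells by -0.10, 0.12 and 0.06 on the log2 scale in libraries a, b and c (mean 0.025 ± 0.117 SD, two-sided exact permutation test p = 0.75, n = 3), and the G2 and M level by 0.24, -0.48 and -0.49 (p = 0.50 by the same exact test), where 3 libraries allow no p below 0.25. Cdk6, a kinase of G1, stood at 466, 399 and 456 CPM against 189, 204 and 192 CPM (log2 fold change 0.91 ± 0.13 SE). Among 26 Myc target and ribosome biogenesis genes 3 were higher, Myc, Nop58 and Dkc1, and 0 lower.

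Clustering the members alone gave 4 groups of 60, 54, 50 and 37 cells, each with cells of all 3 libraries. Their genes are given as a description, since the same cells set the clusters. Cluster 1, the shallowest with a median of 2651 UMIs, had 465 CPM of Myl10 against 86.2 CPM in the other members, and 1121 against 379 CPM of Car2, with Txnip and Gimap6 also among its leading genes. Cluster 2 held all 9 cells rich in granule genes, and had 1296 against 134 CPM of Cpa3 and 183 against 45.3 CPM of Gata2. Cluster 3 was led by division genes, with 498 against 112 CPM of Top2a. Cluster 4 had 2162 against 883 CPM of Ctsg and 744 against 312 CPM of Ccl9. Library a placed 9 of its 22 members in cluster 2 and 2 in cluster 4.

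**Figure D3:**
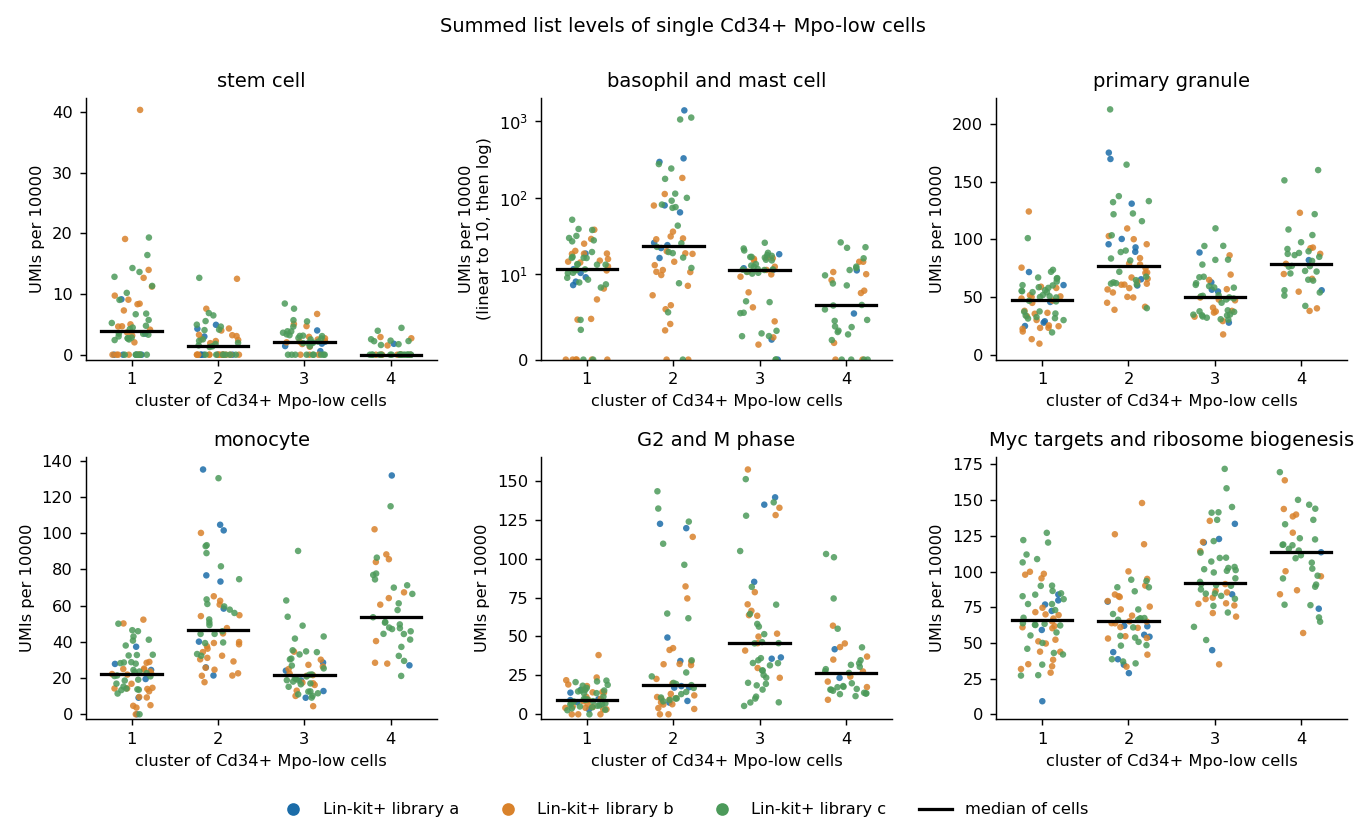
Summed level of 6 gene lists in single Cd34+ Mpo-low cells by cluster (UMIs per 10000, basophil and mast cell panel linear to 10 and then log); points are cells coloured by library, bars the median of cells. Summed over cells, the basophil and mast cell list was highest in cluster 2 (16230 CPM, at most 1497 CPM elsewhere) and the G2 and M list in cluster 3 (6485 CPM).

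Each cell's 15 nearest neighbours were found on genes outside the rule. Of the members' neighbours 14.5% were members, against 1.74% of all cells, and the share was 11.5, 16.1 and 14% in libraries a, b and c. A further 7.0% were stem gene neighbours, 5.21% Flt3 or Dntt neighbours and 2.22% Mpo neighbours, while 71.1% belonged to none of these groups. Most of the cells closest to a member thus failed the rule by more than 1 condition or through another gene. Around stem gene neighbours 12.4% of the nearest cells were members, and 12, 17.1 and 10.2% in libraries a, b and c. Around Flt3 or Dntt neighbours the share was 6.13%, and around Mpo neighbours 5.52%. Having members close by was therefore shared with stem gene neighbours. Genes that vary with the rule's own genes were kept in the search, so these shares describe the rule as well.

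The 3 groups that miss only 1 condition were compared with the members by the same test, over 2521 genes each. The 3 comparisons share the members' sums. Each group was picked by the condition it misses, so genes that vary with Mpo, the stem cell genes, or Flt3 and Dntt had to differ. Calls among primary granule and lymphoid priming genes therefore describe what the conditions separate. Against Mpo neighbours 113 genes (4.48%) differed, 78 higher (3.09%) and 35 lower (1.39%) in members. Car2 stood at 333, 640 and 537 CPM in members and 48.1, 79.6 and 59.1 CPM in Mpo neighbours (log2 fold change 3.16 ± 0.32 SE, adjusted p = 1.6e-07). Myl10 rose by 2.72 ± 0.41 SE, Tspan13 by 1.68 ± 0.27 and Sox4 by 1.49 ± 0.30 on the log2 scale. Ifitm1 and Adgrg1 were higher by 1.25 ± 0.18 and 1.0 ± 0.22. Of 11 primary granule genes 6 were lower and 0 higher, Ms4a3 at 280, 48.9 and 142 CPM against 634, 636 and 646 CPM. S100a8 and Ngp were lower too, and 90% and 91% of their UMIs in these neighbours came from 1 cell. Without library c 12 genes were called, without b 40, and without a 128.

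Against stem gene neighbours 28 genes (1.11%) differed, 17 higher (0.674%) and 11 lower (0.436%). Of the lower genes 4 were the neutrophil genes Camp, Ngp, S100a8 and S100a9, and 94.7%, 95.2%, 93.2% and 92.9% of their UMIs in these neighbours came from 1 cell each. Ctsg stood at 472, 571 and 295 CPM in these neighbours and was higher in members by 1.47 ± 0.23 SE on the log2 scale, and Plac8 stood at 1986, 2023 and 1840 CPM and was higher by 0.98 ± 0.10 (adjusted p = 3.6e-07). Of 10 basophil and mast cell genes 5 were higher and 0 lower, led by Ms4a2 with 3.96 ± 0.70. Cpa3 was among them, with an edgeR adjusted p of 0.47 under the estimate of the spread that allows for outlying genes. The list's median per cell was 11.6 UMIs per 10000 in members and 11.9 in these neighbours. Its summed level was 13102, 1614 and 4495 CPM in members and 1139, 3145 and 1585 CPM in neighbours, so library b went the other way. Cells rich in Mcpt8 and Prss34 numbered 8 among members and 1 among these neighbours. Adgrl4, an adhesion receptor, fell by 1.24 and Car2 by 1.0 on the log2 scale, with Car2 in library b at 641 CPM in neighbours and 640 CPM in members. Without library c 1 gene was called, so the count rests on that library.

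Against Flt3 or Dntt neighbours 70 genes (2.78%) differed, 39 higher (1.55%) and 31 lower (1.23%). Apoe stood at 39.4, 43.9 and 33.9 CPM in these neighbours and was higher in members by 3.46 ± 0.33 SE on the log2 scale (adjusted p = 4.0e-08). Of 10 basophil and mast cell genes 7 were higher, and of 11 primary granule genes 6, with 0 lower in either, and Cpa3 had an edgeR adjusted p of 0.31 under the same estimate of the spread. Summed, the basophil and mast cell list stood at 999, 2822 and 836 CPM in these neighbours. In members it stood at 13102, 1614 and 4495 CPM, so library b again went the other way. Of 6 lymphoid priming genes 4 were lower, Satb1, Lsp1, Il12a and Ikzf1, and Myl10 stood at 1078, 626 and 670 CPM against 213, 188 and 136 CPM in members. Gpr171 fell by 1.61 and Mef2c by 1.44 on the log2 scale. Without library c 2 genes were called.

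**Figure D4:**
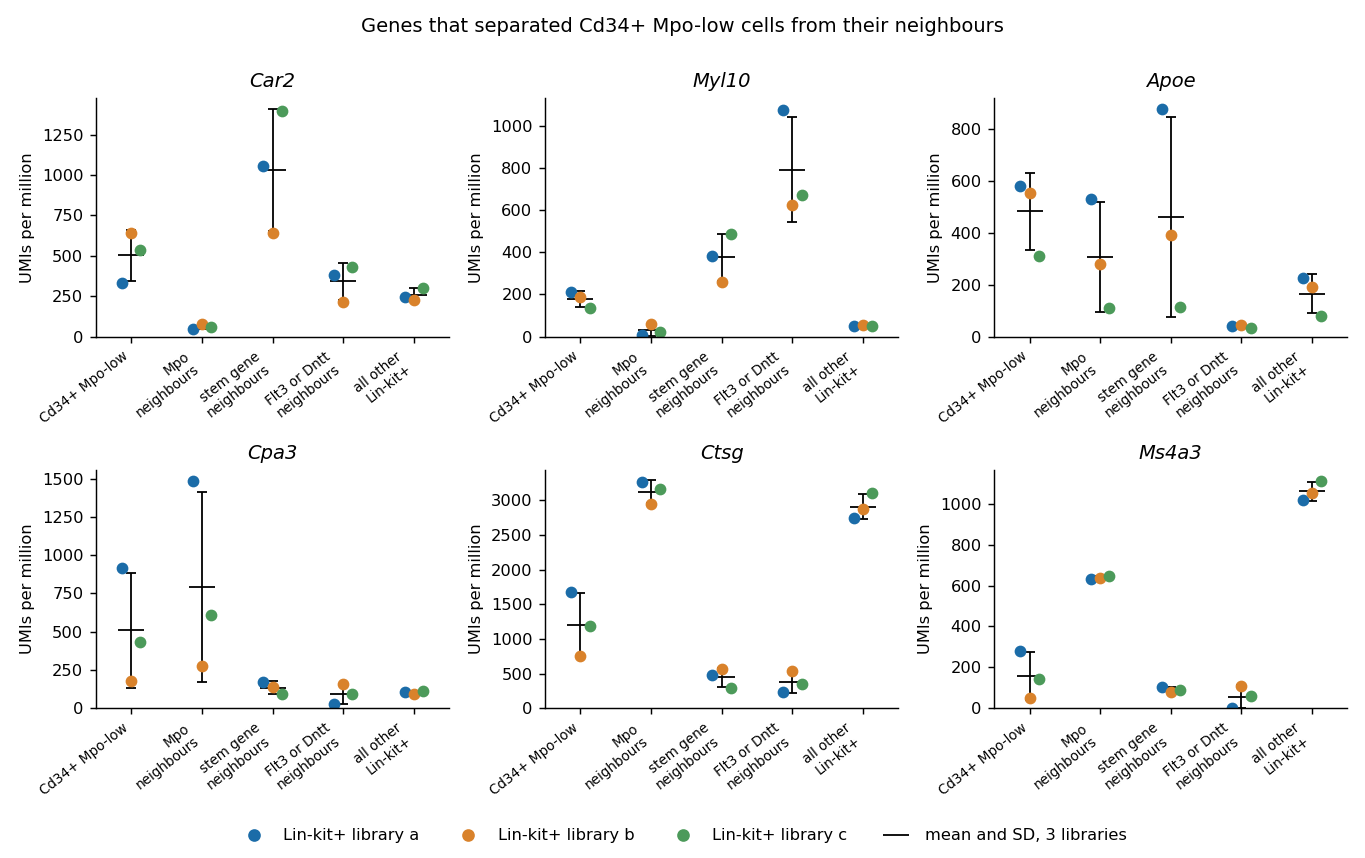
Levels of 6 genes (CPM, linear axis from 0) in Cd34+ Mpo-low cells, in the 3 groups that miss only 1 condition of the rule and in all other Lin-kit+ cells; points are libraries a, b and c, bars the mean and SD. Car2 was lowest in Mpo neighbours (48.1 to 79.6 CPM) and Apoe in Flt3 or Dntt neighbours (33.9 to 43.9 CPM).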

How the data were processed

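Single cells were captured with 10x Chromium 3' v2 chemistry. The authors aligned and counted reads with Cell Ranger and deposited 1 table of raw UMI counts, 15287 genes in 12893 cells with 5 barcode suffixes; the submitters' notes name mm10, Cell Ranger 1.3 and 2.1, and Seurat 2.3.4. Total counts of the Lin-kit+ libraries were 10000606, 18683092 and 36080242 UMIs, with medians of 6567, 4426 and 5509 per cell. Counts were summed per library and group and tested with edgeR 4.0.16 (quasi-likelihood, library as a term), after tests on simulated data, with Benjamini-Hochberg adjustment at 0.05. Members and gene lists were chosen with earlier results of these data known. Named genes were the 15 largest rises and 10 largest falls among called genes with enough UMIs and 1 sign in all libraries, 6 each way per neighbour comparison, and the leading genes of each list; other genes named were chosen after their values were seen. Clusters came from scanpy 1.11.5 and leidenalg 0.10.2. Doublets were marked, not removed. Some named genes are not reported here.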

Additional observations from a re-analysis of the deposited data

How the results depend on the processing

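Mean shares of members were 0.976% with Mpo under 0.1%, 0.756% with at least 3 Cd34 UMIs, 1.3% with the rule on thinned counts and 1.63% without the granule-rich cells. Against all other cells 643 genes were called by DESeq2, 825 with at least 3 Cd34 UMIs, 537 with an equal number of other cells and 576 to 1440 with 1 library left out. Against Mpo, stem gene and Flt3 or Dntt neighbours DESeq2 called 40, 3 and 17 genes, 3 Cd34 UMIs gave 36, 9 and 24, the thinned rule 65, 16 and 30, and leaving out 1 library 12 to 128, 1 to 33 and 2 to 64. Mpo under 0.1% gave 183 against Mpo neighbours, and no filter on low counts 51 and the robust spread, chosen after seeing the data, 18 against stem gene neighbours. The replicate block here is the library, from which both groups of cells come. With no replicate block the calls were 975 against all other cells and 30, 1 and 20 against the neighbours. The S phase ratio was -0.24 with the thinned rule, and resolution 1 gave 6 clusters.

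Some log2 fold changes against all other cells turned. With at least 3 Cd34 UMIs Cyp11a1 was -0.62, Epx -0.63, Mcpt8 -3.20, Prg2 -6.25, Prg3 -10.12 and Prss34 -7.58. With the thinned rule Cyp11a1 was -0.14, Epx -7.89, Gfi1b -0.29, Mcpt8 -2.03, Prg2 -13.54, Prg3 -10.09, Prss34 -2.34 and Stfa1 0.19. With Mpo under 0.1% Mcpt8 was -0.35 and Prss34 -0.81. DESeq2 gave -5.27 for Prg2 and -3.12 for Prg3. Without doublets Epx was -1.32, Prg2 -5.99 and Prg3 -10.02, and without the granule-rich cells Prg2 was -2.47, Prg3 -8.35 and Prss34 -0.77. With 1 library left out Epx ranged from -1.08 to 3.36, Mcpt8 from -0.46 to 1.78, Prg2 from -6.86 to 2.67, Prg3 from -10.39 to 2.16 and Prss34 from -0.36 to 1.74, each lowest without library a. With the thinned rule S100a8 was 3.53 against Mpo neighbours, and S100a8 3.50 and S100a9 3.10 against stem gene neighbours, where Ngp was 0.047 with Mpo under 0.1%. The cause of these changes was not tested. Shallow members limit what their summed counts can show.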
